A study of Mus musculus with 45 samples.

Results

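Translation initiation and elongation factors were followed through mRNA half-life and mRNA level in cells of the developing mouse cortex. The members were the genes whose symbols begin with Eif and a digit from 1 to 6, or with Eef1 or Eef2, without the symbols marked as pseudogenes by -ps, which gave 70 of the 53491 genes in the tables. By role they were 6 elongation factors, 13 subunits of eIF3, 31 other initiation factors, 14 regulators (kinases, methyltransferases and binding proteins that act on the factors) and 6 genes that carry such a symbol but act elsewhere or have no settled role.

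The data came from SLAM-seq, in which RNA is labelled with 4-thiouridine (4sU) and the label is read as T-to-C conversions after alkylation. Primary cortical cells of wild-type mouse embryos of 3 stages (E11.5, then E14.5 and, last, E16.5) grew in 100 uM 4sU for 20 h, after which uridine was added to 5 mM and cells were lysed 0, 2, 4, 8 or 12 h later. Each stage had 3 pools, A, B and C, of 7 embryos each at E11.5 and of 2 embryos each at the later stages, and each pool supplied 1 well per chase time, so that the 45 libraries formed 15 groups of 3. The groups shared the genotype, the labelling and the uridine chase, and differed in the stage and in the time of chase. Cells were dissociated and cultured in a medium for neural progenitors with bFGF, so the values describe mixed cultured cells and not the intact cortex. The same letter at different stages named different embryos.

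Initiation brings the small ribosomal subunit to the start codon. The eIF4 factors bind the cap and recruit the mRNA, eIF2 delivers the initiator tRNA, eIF2B recharges eIF2 with GTP, and eIF3 is a large scaffold that holds the other factors on the small subunit. During elongation, eEF1A delivers aminoacyl-tRNA, the eEF1B subunits (Eef1b2, Eef1d and Eef1g) recharge eEF1A, and eEF2 moves the ribosome along the mRNA. Regulators include the 4E-BP proteins, which block the cap-binding protein eIF4E, the 4 eIF2 kinases, which slow initiation under stress, and eEF2 kinase, which inhibits eEF2.

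Many mRNAs for the translation machinery begin with a C followed by a run of C and T, the terminal oligopyrimidine motif through which mTOR controls their translation. The windows below show the 10 bases before the annotated start and the 20 bases from it. Members with such a run near the start come first. Members with long and short half-lives that have none within 4 bases of the annotated start follow. Capitals mark a C followed by at least 4 bases that are each C or T, where it begins within 4 bases of the start on the transcript's strand.

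Eif3f: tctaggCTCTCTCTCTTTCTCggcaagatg
Eif3l: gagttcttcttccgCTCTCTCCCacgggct
Eif2s3x: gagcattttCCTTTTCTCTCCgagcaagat
Eif2s3y: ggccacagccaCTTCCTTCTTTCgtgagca
Eef1a1: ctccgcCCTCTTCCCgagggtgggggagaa
Eef1a2: cctggtctgcgttctcgctcactggttctc
Eef1b2: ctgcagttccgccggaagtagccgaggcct
Eef2: aaggccgggcgttgacgtcagcggtctctt
Eif3a: ctcgggcggcggcgctgccgccgcgaggga

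The sequences are from RefSeq on GRCm38.p6, where the windows lie at chr7:108934405-108934434 on the plus strand (Eif3f), chr15:79075213-79075242 on the plus strand (Eif3l), chrX:94212632-94212661 on the minus strand (Eif2s3x), chrY:1010585-1010614 on the plus strand (Eif2s3y), chr9:78481705-78481734 on the minus strand (Eef1a1), chr2:181156996-181157025 on the minus strand (Eef1a2), chr1:63176821-63176850 on the plus strand (Eef1b2), chr10:81176621-81176650 on the plus strand (Eef2) and chr19:60790674-60790703 on the minus strand (Eif3a). The first 2 windows belong to eIF3 subunits, and the Eif2s3x and Eif2s3y pair shows a pyrimidine run in both copies of a gene held on the X and Y chromosomes. Of the 54 members with an entry, 12 (22.2%) had such a run within 4 bases of an annotated start, against 16.4% of the 27025 genes in the table and 45.2% of the 62 cytosolic ribosomal protein genes found in it. Exactly at the start, the run was present in 3 members (5.56%), 3.01% of all genes and 22.6% of ribosomal protein genes. Within 4 bases it occurred in 3 of 10 eIF3 subunits, 4 of 25 other initiation factors and 1 of 4 elongation factors. These counts describe letters at annotated starts, which were not measured in these cells. A member without a marked run is therefore not shown to lack the motif. The Eef2 window, for example, ends with the run ctctt, farther from the annotated start.

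The libraries held 15.9 to 43.9 M reads (M, 1e6), or 228.7 to 629.1 M covered Ts, meaning T positions of exons read in that library. The share of covered Ts read as converted over a whole library was 1.01 to 1.44%, 1.03 to 1.18% and 1.80 to 1.91% in stage order before the chase, and 0.24 to 0.29% after 12 h at all stages. Radial glial markers (6 genes) summed to 9578 to 10113 CPM (reads scaled to one common library size) at E11.5, 3448 to 4016 CPM in the next stage and 1305 to 1430 CPM in the last, while 6 neuronal markers summed to 2713 to 3256, 5527 to 6308 and 7844 to 8169 CPM. Markers of red blood cells (5 genes) summed to 1647 to 3672 CPM at E11.5 and at most 58.9 CPM later, and those of meningeal fibroblasts (4 genes) to 371 to 573 CPM at E11.5 and at most 21 CPM later. The 4 interneuron markers summed to at most 40.7 CPM at the first 2 stages and to 179 to 188 CPM at E16.5, and 3 markers of intermediate progenitors to 172 to 180, 158 to 166 and 69.6 to 82.5 CPM. Endothelial and microglial markers stayed under 10 CPM, and no marker in these lists was at 0 throughout a stage. The stages therefore differed in their mix of cells as well as in age, and the part of these cell types in the results below was not tested. In such bulk libraries, fewer cells of a type and less of an RNA in each cell cannot be told apart.

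Half-lives were fitted to the fall of the conversion rate over the chase, scaled to its value at 0 h, and were kept where all 3 replicates of a stage had over 500 covered Ts at every time, a half-life under 24 h and R2 over 0.6. A half-life was obtained for 61, 60 and 64 of the 70 members at the successive stages, and for 58 at all 3. The 7 members with a half-life at only 1 or 2 stages were Eef1a2, Eef2kmt, Eif2ak2, Eif2d, Eif2s3y, Eif3j1 and Eif4e3. None was obtained for Eef1akmt3, Eif2c5, Eif4a3l1, Eif4e1b and Eif4ebp3, of which Eif2c5 had no read in any library and Eef1akmt3, Eif4e1b and Eif4ebp3 reached at most 0.152, 0.0612 and 0.243 CPM.

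Elongation factor mRNAs were among the long-lived transcripts. Their median half-life was 9.97 h ± 1.81, 10.9 h ± 0.775 and 6.83 h ± 0.270 in stage order (SD of the medians of 3 replicates). It was taken over 5, 5 and 6 genes, as Eef1a2 was measured at E16.5 only. All transcripts had medians of 4.38, 4.56 and 3.46 h. Cytosolic ribosomal protein mRNAs had medians of 9.96, 11.1 and 7.15 h over the 47, 42 and 51 of 82 genes with a half-life. In hours the medians of the 2 groups were thus close. Each of the 5 elongation factors measured at every stage was above the median of all transcripts at each stage.

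Eef1a1, the main form of eEF1A, had half-lives of 13.6, 15.3 and 10.7 h in pools A, B and C at E11.5. At E14.5 they were 15.4, 15.1 and 15.8 h, and at E16.5 they were 10.2, 10.5 and 9.95 h. The E16.5 values lay below all others, and pool C was the lowest at E11.5. After 12 h of chase 48.5% ± 4.87 of the initial conversion rate remained at E11.5, against 53.8% ± 1.15 in the E14.5 pools and 36.2% ± 0.758 in those of E16.5 (SD, n = 3). Eef1b2, which recharges eEF1A, was as long-lived, with means of 13.9 h ± 2.91, 15.1 h ± 1.62 and 9.88 h ± 0.509.

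Eef2, the translocase, had half-lives of 9.01, 9.68 and 7.90 h in the E11.5 pools, 10.3, 10.6 and 11.7 h in those of E14.5, and 6.65, 6.92 and 6.69 h in those of E16.5. Its 3 stages did not overlap, with E14.5 highest and E16.5 lowest. Eef1d went from 10.7, 11.3 and 7.04 h at E11.5 to 8.67, 7.81 and 9.66 h and then to 5.41, 4.81 and 5.12 h, where only the E16.5 values were apart from the rest. Eef1g was the shortest-lived of the 5 at E11.5 and E14.5, at 8.01 h ± 0.873 and 8.67 h ± 0.657, and had 6.57 h ± 0.139 at E16.5. Eef1a2, the eEF1A of mature neurons and muscle, had a half-life at E16.5 only, of 6.74, 7.36 and 6.59 h, which was shorter than that of Eef1a1 in each of the 3 pools. Values of Eef1a1 and Eef1g are uncertain, as 39.4% and 44.2% of their 50-base windows also occur in other annotated genes.

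**Figure D1:**
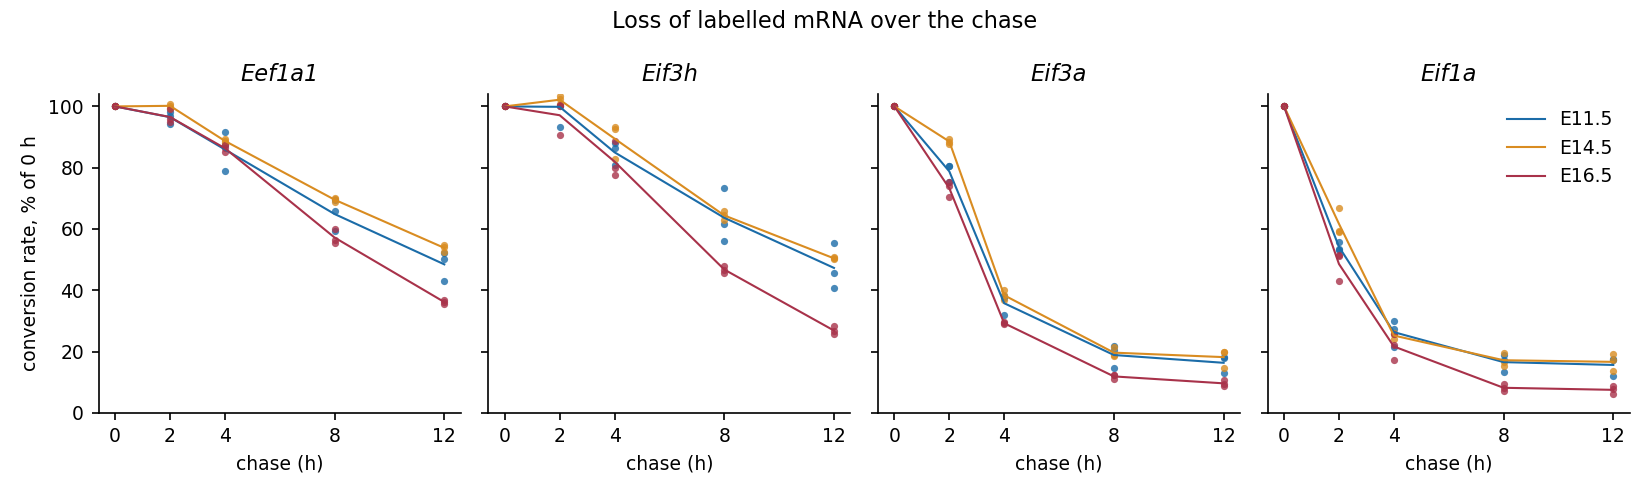
Conversion rate as a percentage of its value at 0 h (vertical axis) against hours of chase (horizontal axis) for Eef1a1, Eif3h, Eif3a and Eif1a, with points for the 3 replicates of each stage and lines for their means. At E11.5 and E14.5 the 12 h rate was 47.3 to 53.8% of the 0 h rate for Eef1a1 and Eif3h, and 15.6 to 18.2% for Eif3a and Eif1a. No background was subtracted. The mean 12 h rates of Eif3a and Eif1a at these stages, 0.189 to 0.205%, were near the 1st percentile of the 12 h rates, 0.142 to 0.153%.

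Subunits of eIF3 covered a wide range. Their median half-life was 6.90 h ± 0.820, 6.38 h ± 0.361 and 4.82 h ± 0.340 at the 3 stages. Eif3h was the longest-lived, with 14.02, 14.6 and 10.1 h in the E11.5 pools, 14.495, 13.3 and 14.1 h in those of E14.5, and 7.89, 8.79 and 7.63 h in those of E16.5. Eif3a, which encodes the largest subunit and a core of the scaffold, was the shortest-lived, with 3.79, 3.82 and 3.14 h, 4.07, 3.85 and 4.07 h, and 2.97, 2.78 and 2.90 h. Thus mRNAs for subunits of 1 complex differed 2.81 to 3.61-fold in half-life within a stage.

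In the order of their means, Eif3h, Eif3k, Eif3i and Eif3f lay between 10.2 and 14 h at the first 2 stages and between 6.06 and 8.10 h at E16.5. Eif3e and Eif3c followed at 7.44 to 8.82 h and then 5.31 to 5.38 h. Eif3m, Eif3l, Eif3b, Eif3d and Eif3g stood at 5.30 to 6.37 h and then 4.08 to 4.78 h. Eif3a stood at 2.88 to 4.00 h. Eif3j1 was measured at the later stages only, at 4.80 h ± 1.93 and 3.22 h ± 0.333, and 36.9% of its 50-base windows also occur in other annotated genes, its copy Eif3j2 first among them.

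The other initiation factors had medians close to all transcripts, at 4.63 h ± 0.497, 5.02 h ± 0.213 and 3.83 h ± 0.312. Eif5a, whose protein carries hypusine and acts in initiation and elongation, was the longest-lived at the first 2 stages and on average over 3, with 9.44, 10.4 and 8.42 h, 8.82, 9.64 and 9.80 h, and 7.88, 8.20 and 8.52 h. Eif1a, for the scanning factor eIF1A, was the shortest-lived with 2.66, 2.52 and 2.17 h, 2.5, 2.75 and 2.71 h, and 2.11, 2.01 and 1.68 h. Its paralogue on the X chromosome, Eif1ax, had 6.39 h ± 0.401, 7.27 h ± 0.857 and 5.74 h ± 0.320. The X copy's lowest replicate, 5.37 h, was above the highest of Eif1a, so 2 genes for nearly the same protein differed in half-life by more than the replicate spread at every stage.

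Eif5a2 had 5.02 h ± 1.23, 5.27 h ± 0.854 and 2.92 h ± 0.208, below Eif5a in every pool. For eIF4A, the cap-dependent helicase, Eif4a1 had 5.69 h ± 0.706, 6.29 h ± 0.856 and 5.77 h ± 0.151, and Eif4a2 had 3.67 h ± 1.03, 5.19 h ± 0.0766 and 3.69 h ± 0.326. For eIF4G, the scaffold between cap and ribosome, the means ran from 5.43 to 6.76 h at E11.5 and from 5.16 to 5.70 h at E16.5 over Eif4g1, Eif4g2 and Eif4g3. For the cap-binding proteins, Eif4e and Eif4e2 had 3.99 h ± 0.396 and 4.08 h ± 0.477 at E11.5, and 3.77 h ± 0.246 and 2.87 h ± 0.182 at E16.5.

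Regulators had medians of 4.84 h ± 0.361, 5.20 h ± 0.407 and 3.86 h ± 0.277. The most spread was seen for Eef1akmt1, a lysine methyltransferase of eEF1A, with 5.00, 3.92 and 5.61 h in the E11.5 pools, 18.2, 7.19 and 12.7 h in those of E14.5, and 10.2, 13.0 and 9.20 h in those of E16.5. Its later values were above all E11.5 values, but the limma adjusted p over all transcripts was 0.172. After 12 h its conversion rate was 0.372% ± 0.209, 1.14% ± 0.358 and 1.32% ± 0.172 in stage order. At the later stages this was far above the whole-library share given above. The source of this remaining signal was not tested, so these half-lives are uncertain. Eef1aknmt, which methylates eEF1A at its N terminus and at a lysine, went the other way, with 3.74 h ± 0.436, 3.01 h ± 0.221 and 2.17 h ± 0.0194. The 4 measured genes that act elsewhere or have no settled role had medians of 4.01, 4.05 and 3.31 h. Eif4a3l2 was the longest-lived of them at each stage, at 5.59, 4.22 and 3.71 h, and the shortest-lived was Eef1e1 at E11.5 (3.75 h) and Eif1ad later (3.56 and 2.75 h).

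**Figure D2:**
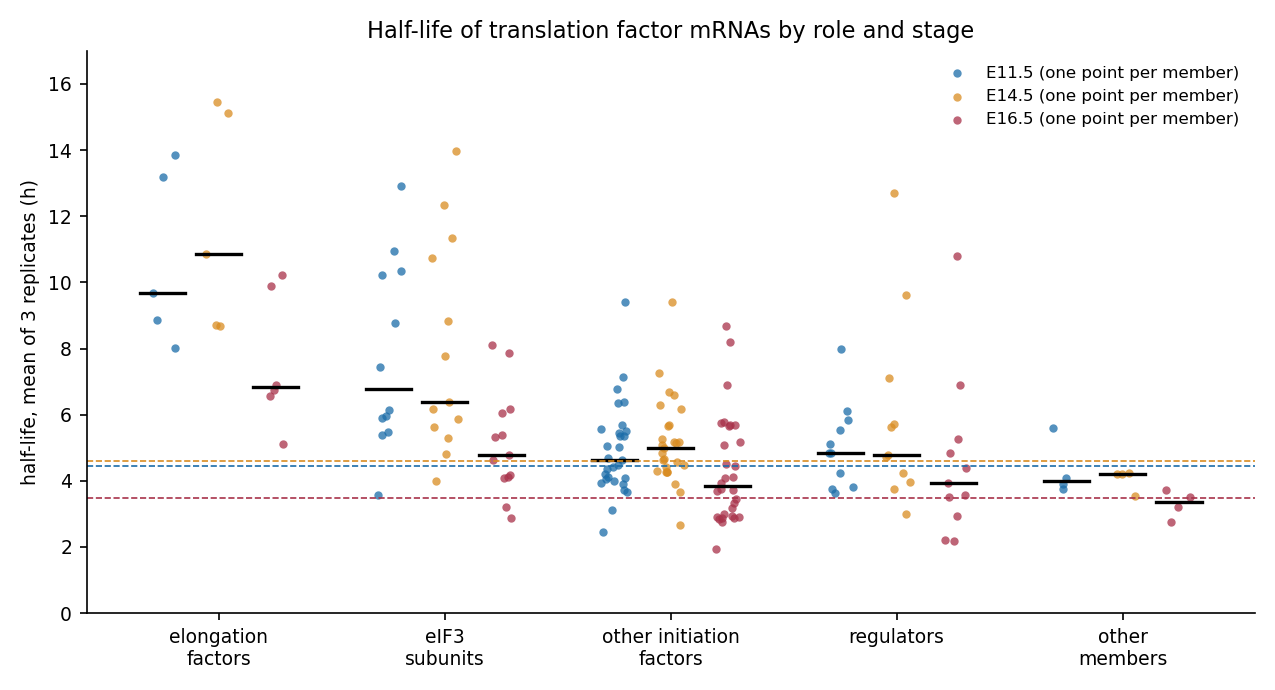
Mean half-life in hours (vertical axis) of each member by role and stage, with a point per gene, black bars for the medians and dashed lines for the median of all transcripts at each stage. Elongation factors lie highest, eIF3 subunits are spread from 2.88 to 14 h, and the other initiation factors lie around the dashed lines.

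The elongation factors and eIF3 subunits as one class were longer-lived than the other initiation factors in each of the 9 replicates. The difference between the 2 medians was 4.10, 4.77 and 2.99 h in pools A, B and C at E11.5 (mean 3.95 h ± 0.902), 3.22, 3.50 and 3.70 h at E14.5 (3.47 h ± 0.242), and 2.24, 1.74 and 1.26 h at E16.5 (1.75 h ± 0.490). Elongation factors alone exceeded the initiation factors by 5.34 h ± 1.33, 5.84 h ± 0.561 and 3.0 h ± 0.409, and eIF3 subunits alone by 2.28 h ± 0.369, 1.37 h ± 0.183 and 0.987 h ± 0.241. All E16.5 values of the joint difference lay below those of the earlier stages. Members of a list are not replicates, so these differences carry no p. With the 1st percentile of the 12 h rates subtracted, chosen after the data were seen, the differences were 3.21, 3.22 and 1.62 h. With the 1st percentile of each library subtracted, which left 1 and 2 genes to compare at E11.5 and 2 and 14 at E16.5, the first was 0.585 h and the second turned in direction, to -0.0895 h.

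Annotated lengths differed between the same groups. The median 3′ UTR of the longest coding transcript per gene was 166 bases for eIF3 subunits, 396.5 bases for elongation factors, 735 bases for the other initiation factors and 1115 bases for regulators. Across members, log2 half-life against log2 3′ UTR length had a Pearson r of -0.31 at E11.5 (n = 57 genes with an annotated 3′ UTR), -0.35 at E14.5 (n = 56) and -0.36 at E16.5 (n = 60), and Spearman's rho was -0.31, -0.35 and -0.39. Against log2 CPM r was 0.43, 0.37 and 0.23. These are descriptions across genes measured in the same libraries, which are not independent replicates. Eif1ax, with 4515 annotated bases of 3′ UTR and a half-life above the initiation factors' median, and Eif3a, with 964 bases and the shortest half-life of its complex, show how loosely the members followed the length.

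Half-lives of most transcripts were shorter at E16.5, and the factors moved with them. Between E11.5 and E16.5 the ratio of half-lives had a median of 0.775 over the 58 members, with 52 of 58 shorter. Over the 9505 transcripts with a value at every stage it was 0.777, with 8562 shorter, so the members' count was near the background. The elongation factors and eIF3 subunits had a median ratio of 0.717 with 17 of 17 shorter, the other initiation factors 0.833 with 22 of 27 shorter, and ribosomal proteins 0.668. Between E11.5 and E14.5 the members' median ratio was 1.05, as over all transcripts. The initial conversion rate was also higher at E16.5, as given above, while the 1st percentile of the 12 h rates was 0.122 to 0.125% at E16.5 and 0.142 to 0.153% before. With that percentile subtracted, which was added after the data were seen, the members' ratio was 0.873 and that of all transcripts 0.889.

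To compare stages relative to the other transcripts, half-lives were expressed as z-scores within each replicate, in SDs from that replicate's mean, and fitted with limma over all 9505 transcripts. On this scale the median of the 17 elongation factors and eIF3 subunits was 2.01, 1.74 and 0.98 SDs at the 3 stages. That of the 5 elongation factors alone was 2.45, 2.73 and 1.79. The median was 3.21, 2.77 and 1.93 for 35 ribosomal proteins, and -0.17, -0.18 and -0.20 for all transcripts. The F-test over the 3 stages called 2 of 58 members, Eef2 (Benjamini-Hochberg adjusted p = 0.0166) and Eif6 (adjusted p = 0.0207), where 3.15% of all transcripts were called. Eif6, for the factor that keeps the large ribosomal subunit from joining too early, had half-lives of 5.57, 4.57 and 3.71 h in the E11.5 pools, 4.86, 4.70 and 5.45 h in those of E14.5, and 6.01, 6.78 and 7.93 h in those of E16.5. It was the one initiation factor whose E16.5 half-lives all lay above those of both earlier stages. Its level had means of 97.4, 94.4 and 89.9 CPM at the 3 stages and was called in no stage comparison by edgeR. After 12 h the Eif6 conversion rate was 0.660% ± 0.128 at E16.5, against 0.209% ± 0.0308 and 0.214% ± 0.0420 before. In E16.5 pool B it was 0.673% at 8 h and 0.793% at 12 h, and it fell in the other pools. The fit has no plateau, and the part of this remaining signal in the longer half-lives was not tested. Exons of Eif6 overlap Gm16098 on the other strand. The Eif6 z-score was higher at E16.5 by 1.93 SDs than at E11.5 (limma adjusted p = 0.0133) and by 1.86 SDs than at E14.5 (limma adjusted p = 0.0353). Eef2 had a lower z-score at E16.5 than it had at E14.5 (difference -0.94 SDs, limma adjusted p = 0.0262).

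The pairwise steps share their samples and are given side by side. From E11.5 to E14.5 none of the 58 members was called by limma, where 0.2% of all transcripts were. At an unadjusted p under 0.05 were 9 of the members, and 1264 of the 9505 transcripts. From E14.5 to E16.5 Eif6 was called longer (0.684% of all transcripts were) and Eef2 shorter (0.2%). From E11.5 to E16.5 Eif6 was called longer (2.99% of all transcripts were), and 3 members were called shorter (1.71%), namely Eef1d (-1.62 SDs, limma adjusted p = 0.0253), Eif3h (-1.51, adjusted p = 0.0461) and Eif3i (-1.40, adjusted p = 0.0499). These 3 belong to the long-lived elongation and eIF3 groups. The 3 shorter members were a larger share of the 58 than the share of all transcripts, from a small count that carries no test. Without any 1 of the 3 E16.5 replicates limma called none of these 3 (adjusted p = 0.0683 to 0.149). Without any 1 of the E14.5 or E16.5 replicates it called neither Eef2 (adjusted p = 0.0651 to 0.0811) nor Eif6 (0.0534 to 0.104) between those stages. Calls also ended for Eef1d and Eif3h without E11.5 replicate A or B, for Eif3h without E14.5 replicate B, for Eif3i without E11.5 replicate A or C or any E14.5 replicate, and for Eif6 between the later stages without E11.5 replicate B or C.

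The calls depended on the scale. On log2 hours with no z-score, where the general shortening at E16.5 stays in the values, the F-test of limma called 31 of 58 members instead of 2, against 43.3% of all transcripts. Leaving out E14.5 replicate A, or any of the 3 E16.5 replicates, ended both F-test calls, with adjusted p of 0.0506 to 0.0724. The rise of Eif6 from E11.5 to E16.5 kept a limma adjusted p of at most 0.0483 under each of the 17 alternatives in which it was measured. None of these alternatives fitted a plateau.

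**Figure D3:**
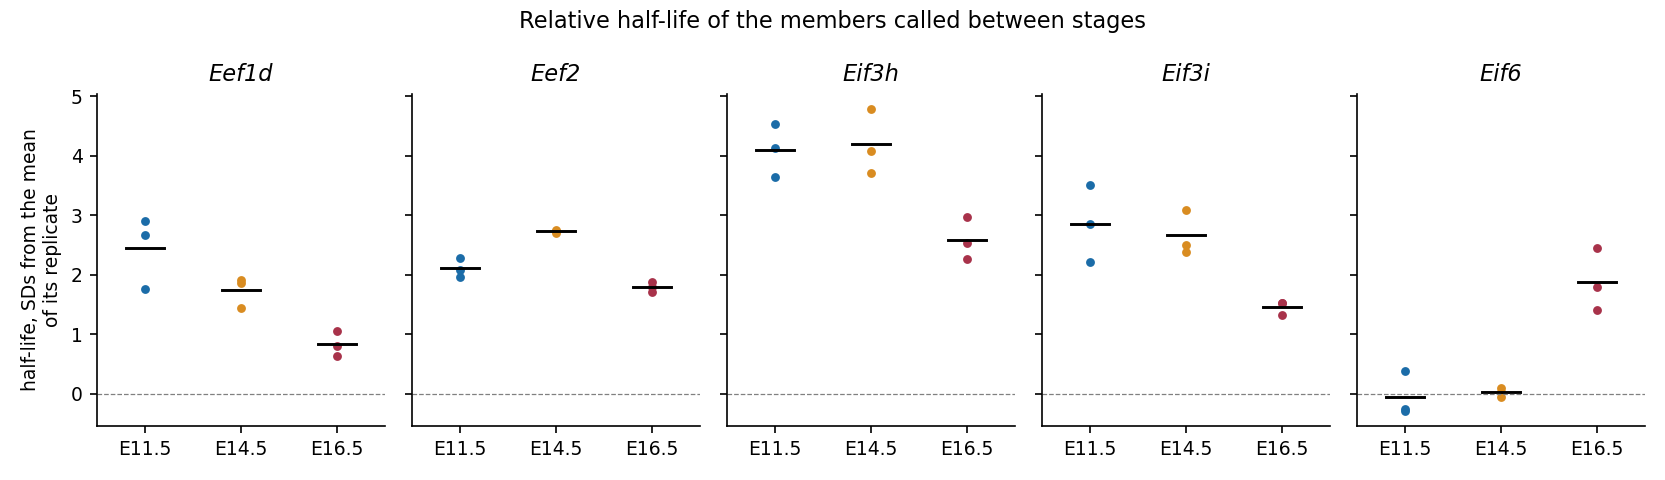
Half-life as a z-score within each replicate (vertical axis, in SDs) for Eef1d, Eef2, Eif3h, Eif3i and Eif6 at the 3 stages, with points for the 3 replicates and bars for their means. Eif6 rises from means of -0.05 and 0.03 to 1.88 at E16.5, and the other 4 are lowest at E16.5.

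Levels before the chase were compared with edgeR on covered Ts at 0 h, and 65 of the 70 members passed the filter of over 10 covered Ts in all 9 libraries. The median change of all 18408 genes tested was -0.06, -0.02 and -0.11 in log2 CPM for E14.5 against E11.5, E16.5 against E14.5 and E16.5 against E11.5, and the fitted changes are relative to it. The 3 comparisons share their libraries. From E11.5 to E14.5, 17 members rose (25.1% of all genes tested did) and 17 fell (23.5%), of which 5 changed beyond 2-fold (16.1%). From E14.5 to E16.5, 8 rose (24.1%) and 39 fell (25.4%), with 3 beyond 2-fold (13.1%). From E11.5 to E16.5, 7 rose (31.4%) and 42 fell (33.1%), with 6 beyond 2-fold (29.3%). Falling members thus exceeded the background share at E16.5, and large changes were fewer than among all genes.

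The fall at E16.5 was small per gene and ran through the core machinery. From E14.5 to E16.5, 5 of 6 elongation factors and 12 of 13 eIF3 subunits fell, with median log2 changes of -0.46 and -0.39, and among the other initiation factors 13 of 29 fell and 4 rose, with a median of -0.24. Among ribosomal protein genes 47 of 78 fell and 1 rose, with a median of -0.53, while the median of all genes was 0.00. The eIF3 subunit that did not pass over this step was Eif3b, with means of 336, 265 and 256 CPM at the 3 stages. The largest eIF3 fall was that of Eif3m, from 58.9, 63.2 and 72.5 CPM at E14.5 to 38.4, 37.8 and 38.8 CPM (log2 change -0.72 ± 0.07 SE, edgeR adjusted p = 4.7e-06). Before that, between E11.5 and E14.5, Eif3c, Eif3e, Eif3j1 and Eif3m had risen while Eif3b, Eif3g and Eif3l had fallen, each by at most 0.35 on the log2 scale.

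Eef1a1 and Eef1a2 moved in opposite directions. Eef1a1 held 2728, 2945 and 2801 CPM at E11.5, 2889, 2684 and 2772 CPM at E14.5, and 1770, 1830 and 1841 CPM at E16.5. The earlier stages overlapped, and E16.5 lay below both (log2 change from E14.5 -0.56 ± 0.06 SE, edgeR adjusted p = 5.9e-06). Eef1a2 held 6.73, 7.55 and 6.96 CPM, then 41.9, 42.6 and 43.9 CPM, and then 96.7, 96.8 and 101 CPM. No stage overlapped another, and the log2 change was 2.67 ± 0.07 SE from E11.5 to E14.5 (edgeR adjusted p = 3.38e-11) and 1.18 ± 0.07 SE from E14.5 to E16.5 (edgeR adjusted p = 6.71e-08). Per kilobase of exon Eef1a1 still led, with 728 against 47.0 CPM per kb at E16.5. Neuronal marker sums rose over the same stages, as given above, and their part in the rise of Eef1a2 was not tested.

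**Figure D4:**
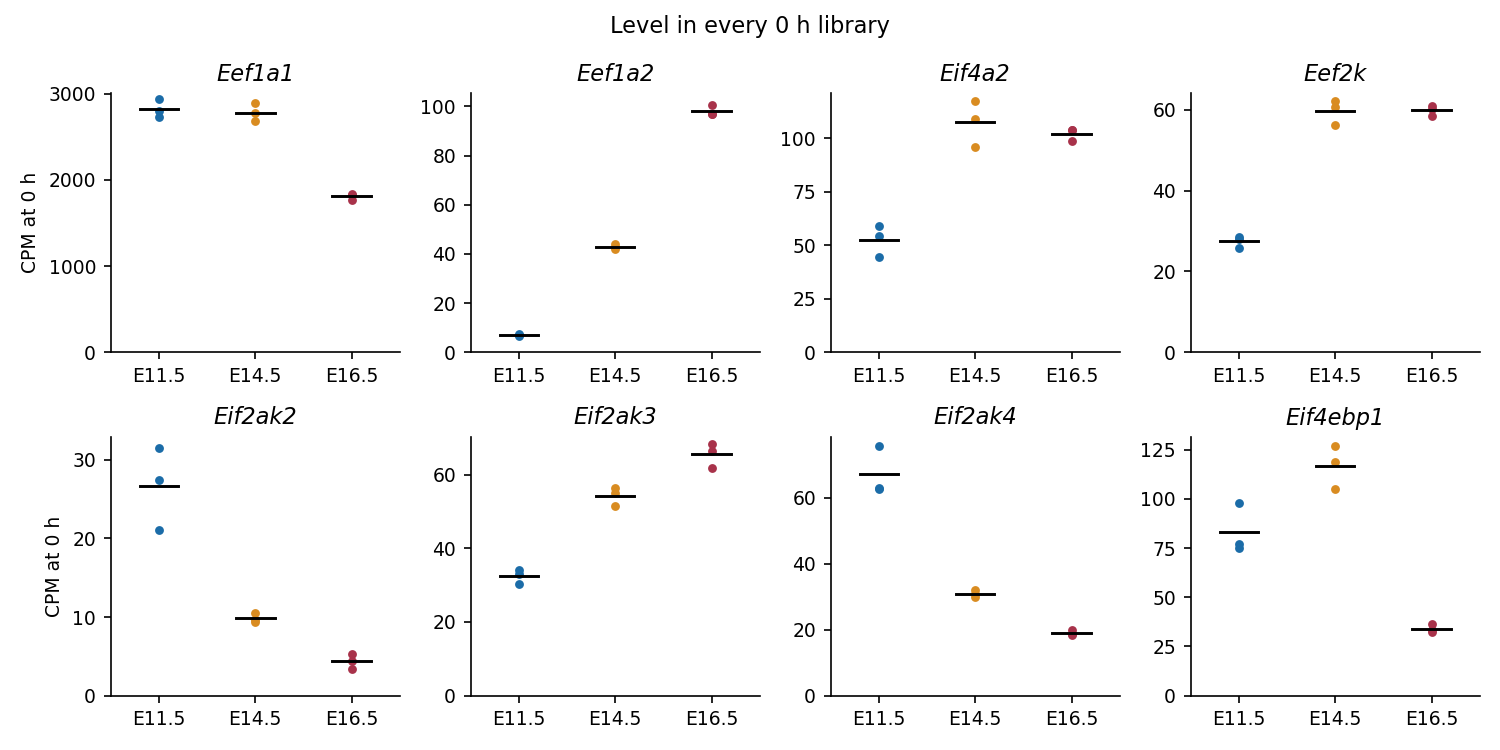
Levels in CPM (vertical axes, each on its own scale) in the 3 libraries of each stage at 0 h for Eef1a1, Eef1a2, Eif4a2, Eef2k, Eif2ak2, Eif2ak3, Eif2ak4 and Eif4ebp1, with bars for the means. Eef1a2 goes from a mean of 7.08 to 98 CPM, Eif2ak2 from 26.6 to 4.38 CPM, and Eif4ebp1 peaks at E14.5 with 117 CPM.

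The other elongation genes fell at E16.5 as Eef1a1 did. Eef2 went from 3307, 3287 and 3272 CPM at E14.5 to 2550, 2492 and 2504 CPM (log2 change -0.37 ± 0.05 SE, edgeR adjusted p = 0.000114), after a rise of 0.19 from E11.5. Eef1b2 and Eef1g changed by -0.55 and -0.65 on the log2 scale from E14.5. Eef1d had already fallen between E11.5 and E14.5 (-0.43) and fell again (-0.22).

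Among the initiation factors Eif4a2 rose most. It held 54.4, 44.4 and 58.8 CPM at E11.5, 109, 96.0 and 117 CPM at E14.5, and 98.6, 104 and 104 CPM at E16.5. The rise lay between the first 2 stages, with no overlap (log2 change 1.01 ± 0.10 SE, edgeR adjusted p = 3.7e-06), and the later stages overlapped. Eif4a1, the other cytoplasmic eIF4A, had means of 39.2, 41.6 and 31.4 CPM. These Eif4a1 values are uncertain because 28.4% of its 50-base windows also occur in other genes, led by Eif4a-ps4, which was outside the list and was itself listed at 689, 705 and 517 CPM.

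Eif2s2, the beta subunit of eIF2, rose from 123, 135 and 118 CPM to 179, 169 and 190 CPM and fell to 101, 97.4 and 94.3 CPM, so that E14.5 stood above both neighbours. Its changes were 0.55 ± 0.07 and -0.81 ± 0.07 on the log2 scale (SE, edgeR adjusted p = 1.89e-05 and 9.29e-07). Eif2s1, the alpha subunit that the eIF2 kinases modify, went from 139 CPM at E14.5 to 89.6 CPM at E16.5 (-0.58). For eIF4G, Eif4g1 fell from 882, 830 and 778 CPM to 524, 644 and 500 CPM at E14.5 and stood at 636, 618 and 622 CPM at E16.5, a log2 change of -0.52 ± 0.09 SE over the first step (edgeR adjusted p = 0.000287). Eif4g3 rose over the second step, from 135, 151 and 146 CPM to 171, 177 and 177 CPM (0.30 ± 0.06 SE, edgeR adjusted p = 0.00196). Eif4g2 had the highest CPM of the initiation factors, at 2676 to 3371 CPM, not scaled to its 10166 bases of exon. It changed by 0.18 and -0.31 over the 2 steps.

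The small start-site factors also differed by paralogue. Eif1b fell by 0.36 and then rose by 0.25 on the log2 scale (edgeR adjusted p = 0.00228 and 0.0217), and Eif1a rose by 0.35 and then fell by 0.30 (adjusted p = 0.000804 and 0.00234). Eif1 and Eif1ax passed the test over the second step, with changes of -0.33 and -0.24. The cap-binding gene Eif4e rose by 0.24 over the first step (edgeR adjusted p = 0.00505), Eif4e2 by 0.16 over the second (adjusted p = 0.0455), and Eif4e3, at 5.37 to 6.65 CPM, passed neither test. Eif5a fell by 0.25 over the first step (edgeR adjusted p = 0.0329), and Eif5a2 fell by 0.51 over the whole span from 24.2 to 16.1 CPM (adjusted p = 0.000893).

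The 4 eIF2 kinases went separate ways. Eif2ak2 (PKR, activated by double-stranded RNA) held 27.4, 21 and 31.5 CPM at E11.5, 9.64, 10.6 and 9.34 CPM at E14.5, and 3.39, 5.33 and 4.43 CPM at E16.5. Eif2ak4 (GCN2, activated by uncharged tRNA) held 75.6, 62.7 and 63.0, then 29.97, 32.0 and 30.7, and then 20.0, 18.6 and 18.5 CPM. Both fell at each step without overlap, with log2 changes of -1.40 and -1.09 for Eif2ak2 (edgeR adjusted p = 3.7e-05 and 0.000298) and of -1.06 and -0.68 for Eif2ak4 (edgeR adjusted p = 5.53e-07 and 3.48e-05). Eif2ak3 (PERK, activated by stress in the endoplasmic reticulum) rose from 34.0, 30.3 and 33.1 to 56.5, 54.9 and 51.4 and then to 68.3, 61.7 and 66.4 CPM, with log2 changes of 0.82 and 0.25 (edgeR adjusted p = 1.48e-06 and 0.0146). Eif2ak1 (HRI, regulated by heme) stayed between 77.4 and 90.4 CPM and rose by 0.19 over the second step (edgeR adjusted p = 0.016). Red blood cell and meningeal markers were highest at E11.5 and fell with Eif2ak2 and Eif2ak4 over the first step. Markers of radial glia and of intermediate progenitors fell at both steps, as these kinases did. The part of these cell types was not tested.

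Eef2k and Eif4ebp1 changed at different steps. Eef2k rose from 28.5, 28.1 and 25.8 CPM at E11.5 to 62.3, 60.8 and 56.4 CPM and stayed at 61.0, 58.6 and 60.4 CPM, a first-step log2 change of 1.20 ± 0.07 SE (edgeR adjusted p = 3.93e-08). Eif4ebp1 went from 76.9, 97.9 and 75.1 CPM to 119, 127 and 105 CPM and then to 36.2, 33.6 and 32.6 CPM, with changes of 0.54 ± 0.11 and -1.76 ± 0.11 SE (edgeR adjusted p = 0.000942 and 1.1e-07). Its paralogue Eif4ebp2, the more abundant 4E-BP, stayed between 375 and 427 CPM in the 9 libraries and passed none of the 3 tests, and Eif4ebp3 was listed at no more than 0.243 CPM. Per kilobase of exon Eif4ebp1 went from 37.9 and 53.2 to 15.5 CPM per kb, and Eif4ebp2 from 72.0 and 65.9 to 66.6. Outside the regulators, among the genes that act elsewhere or have no settled role, was Eif4a3l1, a copy of the exon junction helicase Eif4a3. It fell by 0.79 from 4.39 to 2.46 CPM over the first step (edgeR adjusted p = 0.00619).

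**Figure D5:**
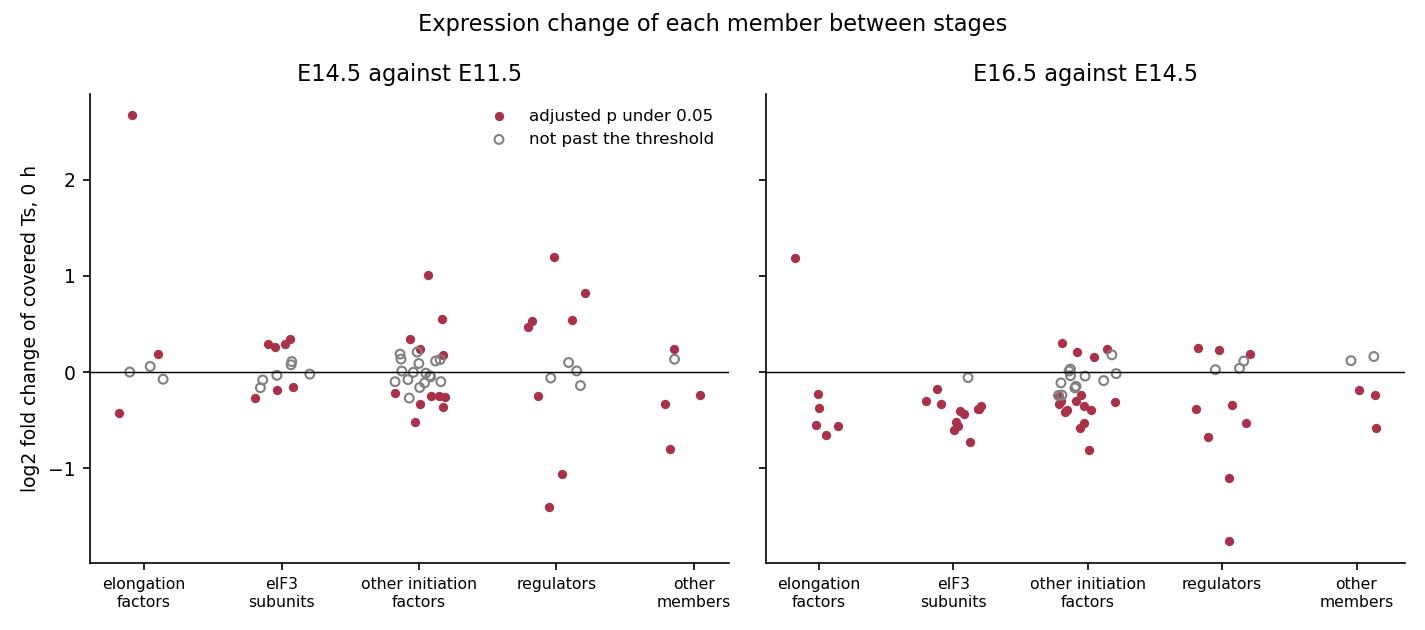
Log2 change in level at 0 h of each tested member by role, for E14.5 against E11.5 and for E16.5 against E14.5, with filled points where the edgeR adjusted p is under 0.05. Over the second step 18 of 19 elongation factors and eIF3 subunits lie below 0, with Eef1a2 at 1.18 as the exception, while over the first step the roles are spread to both sides.

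The X and Y copies of the eIF2 gamma subunit varied between pools. Eif2s3y held 14.47, 14.9 and 22.3 CPM at E11.5, 0, 40.5 and 31.1 CPM at E14.5, and 21.9, 21.3 and 45.6 CPM at E16.5. The 0 belonged to E14.5 pool A, where all 5 libraries had 0 reads, which allows up to 0.0637 CPM at 0 h from 3 reads, by counting error alone. Other Y-linked genes, chosen after the values were seen, had at most 1 read there (Ddx3y, Uty and Kdm5d), and Xist had at most 3 reads in E14.5 pool B and at most 1 in E16.5 pool C. Eif2s3x was at 45.5 CPM in E14.5 pool A and at 24.8 and 26.1 CPM in the other 2. The pools therefore differed in sex chromosome content, Eif2s3y failed the filter because of pool A, and no stage test was made for it. At E16.5 the half-life of Eif2s3y was 9.12, 7.74 and 9.19 h, above the 4.21, 5.71 and 5.28 h of Eif2s3x in every pool, and 34.6% of the windows of Eif2s3x also occur in other genes.

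A list of genes that act beside the factors in termination, recycling and control of translation was also read. Of 29 such genes 27 were tested; 5 rose and 5 fell from E11.5 to E14.5, and 4 rose and 10 fell from E14.5 to E16.5, against the shares of all genes given above. Among those that fell over the second step were Tpt1, a small protein encoded by a terminal oligopyrimidine mRNA (log2 change -0.96), the poly(A)-binding protein Pabpc1 (-0.51) and the release factor Etf1 (-0.50). Dhps, the first enzyme of hypusine synthesis on eIF5A, rose by 0.45. The eIF4E kinases changed in opposite directions over the first step, by 0.94 for Mknk1 and -0.74 for Mknk2, and Mcts1, a reinitiation factor, rose by 0.83. All 7 had an edgeR adjusted p of at most 0.00101. None of the 25 measured was called in the half-life F-test of limma, where 3.15% of all transcripts were. At an unadjusted p under 0.05 were 2 of the 25, and 2058 of the 9505 transcripts.

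A half-life read from label decay describes turnover at a steady level only if that level holds over the chase, so 12 h was compared with 0 h within each stage by edgeR. At E11.5, 4 members rose (10.3% of all genes tested did) and 6 fell (8.18%). At E14.5, 1 rose (6.29%) and 5 fell (5.63%). At E16.5, 8 rose (13.1%) and 7 fell (11.4%). The wells of 1 letter came from 1 pool, and with the pool as a block 5 rose (17.8% of all genes) and 21 fell (16.1%) at E11.5, 1 rose (10.8%) and 11 fell (9.97%) at E14.5, and 12 rose (18.7%) and 13 fell (17.1%) at E16.5. Leaving out 1 pool gave totals of 3 to 6, 0 to 1 and 4 to 10. At E11.5 the median change of all genes was -0.20 in log2 CPM, and the fitted changes are relative to it. Without the block the counts were near or below the background. With it the falling members exceeded their background share at E11.5 and E14.5.

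The largest called rise and fall of the chase at E11.5 were those of Eef1a2 and Eef1aknmt. At E11.5 Eef1a2 went from 6.73, 7.55 and 6.96 CPM to 13.1, 12.8 and 12.9 CPM after 12 h (log2 change 1.05 ± 0.11 SE, edgeR adjusted p = 0.000273), without overlap. At E14.5 its change of 0.25 did not pass (edgeR adjusted p = 0.129), and at E16.5 it went from 96.7, 96.8 and 101 CPM to 110, 112 and 112 CPM (0.19, edgeR adjusted p = 0.00986). Eef1aknmt fell at each stage, with log2 changes of -0.65, -0.39 and -0.33 (edgeR adjusted p = 0.00121, 0.0154 and 0.00153). The largest called changes at E16.5 were those of other genes. Eif2ak3 fell from 68.3, 61.7 and 66.4 to 41.6, 36.4 and 44.3 CPM (-0.65 ± 0.07 SE, edgeR adjusted p = 0.000319), and Eif1b rose from 131, 143 and 120 to 179, 198 and 159 CPM (0.43 ± 0.08 SE, edgeR adjusted p = 0.00403). Of the long-lived elongation and eIF3 genes, Eef2 rose relative to all genes (0.23, edgeR adjusted p = 0.0378) and Eef1d fell (-0.21, adjusted p = 0.036) at E11.5. In CPM, Eef2 went from 2929, 3154 and 2916 to 3097, 3298 and 2834 in pools A, B and C, with overlap and a fall in pool C. Eif3f rose at E14.5 (0.34, edgeR adjusted p = 0.0277) and at E16.5 (0.16, adjusted p = 0.0103). These values are from the fit without the pool as a block, in which Eef1a1, Eef1b2 and Eif3h were called at no stage.

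Whether the chase changes differed between stages was tested by an interaction term over the 18 libraries of 0 h and 12 h, added after the data were seen. Between E14.5 and E11.5 the change of 1 of 65 members differed (5.32% of all genes tested did), namely Eef1a2. Between E16.5 and E11.5, 5 members differed (7.36%), namely Eef1a2, Eif1b, Eif2ak3, Eif2s1 and Eif4ebp2. Between E16.5 and E14.5 edgeR called 0 of 65 (0.43% of all genes). At an unadjusted p under 0.05 were 13 of the 65, a count for which no share over all genes is given here. With the pool as a block these counts were 5 (12.0% of all genes), 14 (16.3%) and 5 (3.9%).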

How the data were processed

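RNA of 45 libraries was sequenced from a stranded mRNA preparation. The authors aligned the reads with SlamDunk to the mouse genome (mm10) and summed covered and converted Ts over GENCODE exons of each gene; settings for reads with several alignments, and whether counting used the strand, are not given in the sources used here. The deposited tables, 1 for each of the 9 stage replicates, hold per chase time the count of covered Ts, the conversion rate as a fraction of them, and library-scaled reads (CPM). Whole reads could be recovered from 100% of the deposited CPM values within 0.01.

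Half-lives were computed here by least squares of exp(-kx) on rates divided by the 0 h rate, under the criteria stated with the results, and z-scored half-lives were fitted with limma 3.58.1 in place of the regression package of the study. Covered-T counts were tested with edgeR 4.0.16 (quasi-likelihood, TMM, over 10 covered Ts in all libraries), with Benjamini-Hochberg adjustment over all genes and 0.05 as the limit. Libraries hold many covered Ts for each read, so covered Ts are not independent molecules. P-values measure the spread between pools. Ranges and limits for reads cover counting error only. Both tests were tested on simulated data. R 4.3.3, DESeq2 1.42.0 (alternative), Python 3.11.15, numpy 2.4.6, pandas 2.3.3 and matplotlib 3.10.9 were used.

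The members and lists were chosen with earlier results of these data known. Named genes were the elongation factors, the longest- and shortest-lived member of each role, the members called in the F-test, the 3 largest called rises and falls without overlap of each stage comparison at 0 h, and 10 paralogue groups. Other members named singly, such as Eif2s1 and Eif3m, were chosen after their values were seen. Positions, lengths and overlaps came from GENCODE M21 (67 of 70 members matched), an earlier release than the one the authors counted on, so they need not match the counted exons in every gene, start sequences from RefSeq (54 matched). A window is 50 bases of an annotated transcript, and 6 members share at least 25% of theirs with other genes (Eef1a1 39.4%, Eef1g 44.2%, Eif2s3x 34.6%, Eif3j1 36.9%, Eif4a1 28.4%, Eif4ebp3 65.5%), while 25 share none. Exons of 12 members overlap a gene on the same strand and those of 15 others one on the other strand only, so their values are uncertain.

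Within a stage the wells of a pool are paired by the labels: deviations of 0 h and 12 h libraries of 1 pool correlated at 0.143 to 0.274 (E11.5), 0.0849 to 0.181 (E14.5) and 0.108 to 0.249 (E16.5). Alternatives changed the half-life fit, the scale, the filter, the normalization, the tool, the block and the replicates used.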

Additional observations from a re-analysis of the deposited data

Results flagged for a closer look

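The change in level between 0 h and 12 h of chase differed between stages for 5 members by the interaction term of edgeR. These were 5 of 65 between E16.5 and E11.5 (7.36% of all genes) and 1 of 65 between E14.5 and E11.5 (5.32%). The counts were thus near or below the background. Each difference is given on the log2 scale with its Benjamini-Hochberg adjusted p over 17224 genes. Eef1a2 rose during the chase at E11.5, from a range of 6.73 to 7.55 CPM to 12.8 to 13.1 CPM in 3 of 3 pools, and its change was lower by 0.84 at E14.5 (difference -0.84, adjusted p = 0.000159) and by 0.87 at E16.5 (difference -0.87, adjusted p = 0.000106) than at E11.5. Eif2ak3 fell in 3 of 3 pools at E16.5 and had a fitted change of 0.15 at E11.5, a difference of -0.81 (adjusted p = 0.000202). Eif1b rose in 3 of 3 pools at E16.5 and had a fitted change of -0.07 at E11.5, a difference of 0.49 (adjusted p = 0.0162). Eif2s1 differed by 0.30 between E16.5 and E11.5 (adjusted p = 0.0387), with fitted changes of 0.11 and -0.19 that were not called within either stage without the pool as a block (edgeR adjusted p = 0.0506 and 0.0524) and were called at both with it (adjusted p = 0.0282 and 0.00802). Eif4ebp2 differed by -0.30 (adjusted p = 0.018), with fitted changes of -0.04 at E16.5 and 0.25 at E11.5. The E11.5 libraries also shifted over all genes by -0.20 in log2 CPM during the chase, and the part of that shift was not tested.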

How the results depend on the processing

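With the elongation and eIF3 genes against the other initiation factors, the difference of median half-lives at E14.5 was 3.72 h with over 2000 covered Ts, 3.84 h with R2 over 0.8, 3.16 h with a free amplitude and 3.22 h with the 1st percentile of the 12 h rates subtracted (chosen after seeing the data), against 3.47 h. Subtracting the 1st percentile of each library, 0 h included, gave 0.585 h at E11.5 and turned the sign to -0.0895 h at E16.5, but left 1 and 2 genes at E11.5 and 2 and 14 at E16.5 to compare, and none of the first group at E14.5. Without 1 replicate the differences were 3.54 to 4.44, 3.36 to 3.60 and 1.50 to 1.99 h.

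The F-test called 31 members on log2 hours, 23 on hours, 1 on log2 half-life over the replicate median, 4 with over 2000 covered Ts, 10 with R2 over 0.8, 8 with a free amplitude and 0 with each library's 1st percentile subtracted or the replicate block, against 2, and 0 to 3 without 1 replicate. For E14.5 against E11.5 the pairwise contrast called 1 with R2 over 0.8, against 0, and 0 without any 1 replicate. For E16.5 against E14.5 the counts were 37 on log2 hours, 30 on hours, 6 with R2 over 0.8, 6 with a free amplitude, 0 with each library's percentile and 0 with the replicate block, against 2, and 0 to 2 without 1 replicate. For E16.5 against E11.5 they were 23, 17, 7, 11 and 0 under the same settings except the block, which gave 3, against 4, and 1 to 5 without 1 replicate. The cause of these moves was not tested. Values in hours retain the general shortening at E16.5, where 8945 of 9505 transcripts were shorter than at E14.5. Members with a half-life at all 3 stages numbered 50 with R2 over 0.8 and 60 with a free amplitude, against 58. Shares of all transcripts called are given only for the main fit and for the F-test on log2 hours (43.3%). The other counts are therefore not results about the members.

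Letters shared across stages named different embryos, and same-letter samples correlated at -0.06 to 0.06 in level and -0.02 to 0.04 in half-life, so the block across stages has no design behind it. It gave 34, 43 and 48 members called in level at 0 h, against 34, 47 and 49. Without 1 replicate these were 27 to 33, 38 to 47 and 44 to 52. Another normalization, tool or filter kept these within 1.5 times. Over the chase, where letters are pools, the replicate block called 26, 12 and 25 members, against 10, 6 and 15. DESeq2 called 10 at E14.5, and without 1 pool the counts were 3 to 6, 0 to 1 and 4 to 10. The chase difference between stages with the replicate block was called for 5 (E14.5 against E11.5), 5 (E16.5 against E14.5) and 14 (E16.5 against E11.5), against 1, 0 and 5. For 104 results on single genes 1336 values were computed, of which none changed direction and 156 no longer passed.

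The precision is set by 3 pools a stage and 5 chase times for each half-life.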
